A study of Ovis aries with 30 samples.

Results

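The cytosolic ribosomal protein genes encode the protein parts of the ribosomes that translate nuclear messages in the cytosol, RPL genes for the large subunit and RPS genes for the small one. They were taken here as all rows of the count table whose gene name is RPL or RPS followed by a number and an optional short ending, which gave 77 genes of 28524, 46 RPL genes and 31 RPS genes. BAT from around the kidneys and thyroid tissue came from 15 newborn Romney lambs, each the heavier of twins, so that the table holds 30 libraries, 15 per tissue. The cold group (n = 6) was kept indoors for 2 days at 4 °C, the AT group (n = 6) for 2 days at an ambient temperature of 20 to 22 °C, and the control lambs (n = 3) were sampled by about 24 h after birth. Because treated lambs were also older than controls, treatment and age cannot be told apart in any comparison with control, and cold against AT is the comparison at one age. The study left 1 control lamb out in both tissues, identified here as control 2, and its values are given beside those of controls 1 and 3. Each library came from a separate lamb within a tissue, so p-values measure the spread between lambs.

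A ribosome needs one copy of nearly every ribosomal protein, and cells tend to make the parts in step. Their messages start with a terminal oligopyrimidine (TOP) tract, through which mTOR and LARP1 set how much of them is translated. Ribosomal protein messages are among the most abundant of any tissue, and a few of the genes, such as RPL19, serve as reference genes. A few genes of the family are paralogs with their own tissue pattern, such as RPL3L, which is known from striated muscle, and RPL7L1, a relative of RPL7 known from the assembly of the large subunit.

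The 77 genes lie on 24 chromosomes, with 9 on chromosome 14 and 7 on chromosome 3. Their merged exons span 338 to 2365 bases with a median of 663 bases. The counting included reads that map to several places, and ribosomal protein genes have many near-identical copies in mammalian genomes, so the split of reads between a gene and its copies is uncertain. An exon of 9 of the genes, among them RPS6, RPS14, RPS9, RPS2 and RPL26L1, overlaps a gene on the opposite strand, and the use of strand in the counting was not given in the sources used here. RPSA, FAU and RACK1 also encode small-subunit proteins, but their names fall outside the rule and they are described apart. RPL17, RPL23, RPL34, RPL39 and RPL41 were not analysed here.

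The depth was 31556500 to 37025998 counts per library in BAT and 25062784 to 30124871 in thyroid tissue, of which the unnamed pair LOC114112617 and LOC114115287 took 43.8 to 76.5% in BAT and 5.18 to 27.8% in thyroid tissue. Shares below are of the counts outside this pair and outside 18 rows of ribosomal RNA. The summed normalised counts of 9 brown adipocyte markers were 36857 to 539033 in BAT and 3110 to 27270 in thyroid tissue, and those of 8 thyrocyte markers, none at 0 in a thyroid group, were 1317287 to 4478981 in thyroid tissue and 164 to 1689 in BAT. In thyroid tissue, 2 libraries held many reads of the 7 skeletal muscle markers found of 8 sought, AT 3 with a summed 3328839 normalised counts and control 1 with 272641, while the other 13 lay between 99.8 and 3891.

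Together the 77 genes took 5.57 to 10.1% of these counts in BAT and 4.29 to 7.13% in thyroid tissue. The median share in BAT was 7.87% in the cold group (5.93 to 10.1%, n = 6) and 8.60% in the AT group (6.03 to 9.52%, n = 6). BAT controls 1, 2 and 3 held 6.08%, 7.79% and 5.57%. In thyroid tissue the median was 6.43% in the cold group (5.83 to 7.12%) and 5.93% in the AT group (5.12 to 7.13%), and controls 1, 2 and 3 held 6.16%, 5.02% and 4.29%. The groups overlapped in both tissues, apart from BAT control 3, which lay below every treated BAT library, and thyroid controls 2 and 3, which lay below every treated thyroid library. Thyroid control 3 also had the highest summed thyrocyte markers, 4478981 normalised counts, whose part in its low share was not tested.

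**Figure D1:**
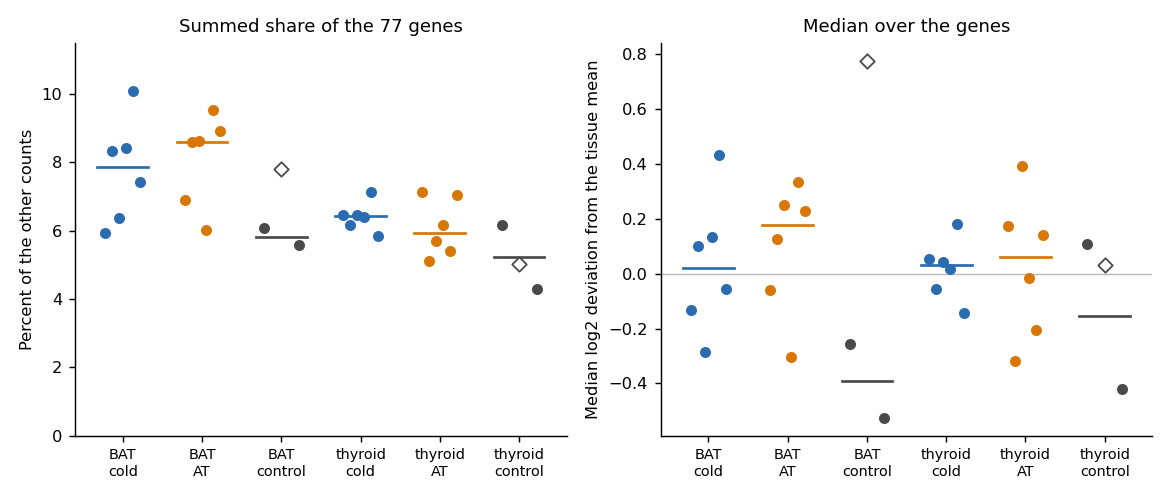
Left, summed share of the 77 genes in percent of the counts outside the abundant pair and ribosomal RNA, and right, the median over the tested genes of the log2 deviation from each gene's mean in its tissue. Each point is 1 library, lines are medians of the libraries used, and the open diamond is control 2, which sits at 0.78 in BAT, above the other 14 BAT libraries.

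Per kilobase of exon and on one scale for both tissues, RPLP1 and RPL23A had the highest mean levels in BAT. RPLP1, a protein of the acidic stalk that recruits elongation factors, stood at 79648 ± 21234 normalised counts per kb (SD, n = 14). RPL23A, a large-subunit protein near the exit of the peptide tunnel, stood at 65996 ± 12035, so the order of these genes was within their spread. In thyroid tissue RPL23A led with 81954 ± 12512 per kb, followed by RPLP1 with 70682 ± 12328. The ranges of RPL23A and RPLP1 overlapped, from 52175 to 101133 and from 49221 to 99776 per kb.

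The lowest levels per kb belonged to paralogs. RPL3L had a median of 8.13 normalised counts per kb in BAT and 9.77 in thyroid tissue, RPL26L1 had a mean of 186 ± 31.6 in BAT and 153 ± 27.9 in thyroid tissue, and RPL22L1 had 548 ± 170 and 333 ± 56.4 (SD, n = 14 each). RPL7L1 came next with 770 ± 119 in BAT and 759 ± 170 in thyroid tissue. These are levels of single messages, and every other member had a higher mean than these in both tissues.

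The first comparison asked how the genes differ between BAT and thyroid tissue of the same lambs. It used 28 libraries of 14 lambs in one edgeR quasi-likelihood fit, scaled by TMM on the tested genes outside the 77. The fit had no term for the lamb, so both libraries of a lamb were treated as independent. A fit with the lamb as a block is given with the alternatives. Of the 77 genes, 49 were higher in BAT and 5 were lower at a Benjamini-Hochberg adjusted p under 0.05, or 70.1%, beside 71.7% of all 17021 genes tested (38.9% higher and 32.9% lower). The total share called was therefore close to the background, while the calls leaned to BAT. At the study's added rule of |log2FC| of at least 1, 9 genes were called, 7 of them higher, beside 37.9% of all genes. The median log2FC of the members was 0.43, a fold of 1.34, and that of all tested genes was 0.08. In bulk tissue, fewer cells of a type and less RNA per cell cannot be told apart.

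Of the 31 RPS genes, 25 were higher in BAT and the other 6 did not pass the test, with a median log2FC of 0.63. Of the 46 RPL genes, 24 were higher and 5 lower, with a median of 0.31. The difference between the subunits was not tested. Within the same lamb, 35 genes were higher in BAT in all 14 lambs, 20 RPS and 15 RPL genes, which 21.8% of all tested genes also were. The 14 BAT values lay above all 14 thyroid values for 12 genes, beside 10.8% of all tested genes.

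RPL21, RPS12 and RPS28 had the highest log2FC. RPL21 (chromosome 10, 34435881 to 34440116, minus strand, 7 merged exons, Oar_rambouillet_v1.0) stood at 19219, 34126 and 67231 normalised counts per kb in BAT (lowest, median and highest of 14) and at 7488, 11449 and 18773 in thyroid tissue. No thyroid library reached the lowest BAT library, and the log2FC was 1.49 ± 0.21 (SE). RPS12 (chromosome 8, 64306948 to 64310296, plus strand) stood at 23945, 33048 and 56361 per kb in BAT and at 6003, 11435 and 19261 in thyroid tissue, a log2FC of 1.45 ± 0.19. RPS28 (chromosome 5, 15285478 to 15286624, plus strand) stood at 18177, 28366 and 44178 in BAT against 8039, 10674 and 14011 in thyroid tissue, and its log2FC was 1.43 ± 0.14 (adjusted p = 1.1e-09 by edgeR). RPS12 lies in the head of the small subunit, and RPS28 lies near the path of the message. RPS15, also of the small subunit, had a log2FC of 1.09 ± 0.14, and no thyroid value lay inside its BAT range.

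RPL3L, RPL23A, RPL19 and RPL10 were among the genes lower in BAT. RPL23A had a log2FC of -0.33 ± 0.10 and was lower in BAT in all but 1 of 14 lambs. RPL19 had -0.32 ± 0.09 and was likewise higher in BAT in 1 lamb, and RPL10, a protein at the joint of the subunits that is added late in assembly, had -0.27 ± 0.11 and was higher in BAT in 3 lambs. With all 3 controls these genes were no longer called, with log2FC of -0.21, -0.22 and -0.15, nor with control 2 in place of control 1 (-0.12, -0.14 and -0.07) or of control 3 (-0.16, -0.18 and -0.10). RPL3L had -3.29 ± 1.0, yet it was higher in BAT in 6 of the 14 lambs, and without thyroid AT 3 and thyroid control 1 its log2FC was -0.72 (adjusted p = 0.17 by edgeR). With control 2 in place of control 1 it was -1.94.

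**Figure D2:**
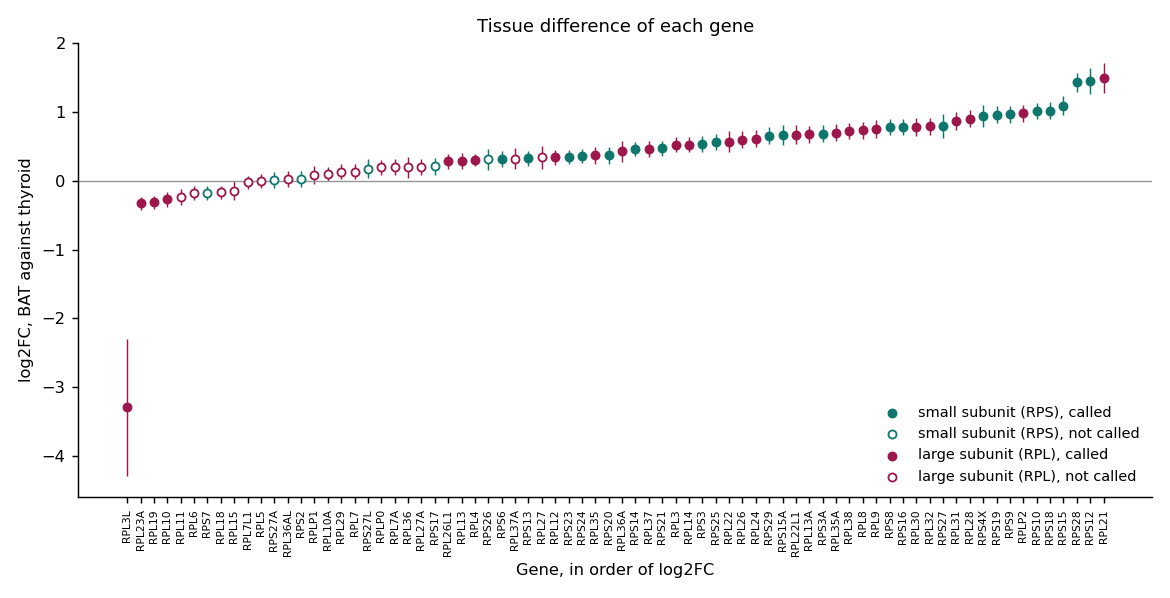
log2FC of 74 of the 77 genes in BAT against thyroid tissue with its standard error (vertical lines), in order of size. Filled points passed an adjusted p under 0.05, and the filled points at the left are RPL3L, RPL23A, RPL19 and RPL10.

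Genes with known roles of their own spread over this range. In the stalk, RPLP2 was higher in BAT with a log2FC of 0.98 ± 0.12, in 14 of 14 lambs, while RPLP0 with 0.19 ± 0.11 and RPLP1 with 0.08 ± 0.13 did not pass the test. RPL5 and RPL11, which carry 5S RNA and bind MDM2, had log2FC of -0.01 ± 0.10 and -0.24 ± 0.11 and did not pass. RPS19, RPS3 and RPS14 of the small subunit were higher in BAT with 0.96 ± 0.12, 0.53 ± 0.11 and 0.46 ± 0.10. RPL13A, known outside the ribosome from translational silencing in inflammation, was higher with 0.67 ± 0.12. RPS6, the substrate of S6 kinase, was higher with 0.32 ± 0.12, and RPS27A, made as a fusion with ubiquitin, did not pass with 0.01 ± 0.12. With control 2 in place of control 1 or control 3, RPS14 had 0.74 in either case and RPS6 had 0.67 or 0.58, all of them called.

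The counts of members called higher and lower between the tissues depended on the scale. With size factors from the study's 3 reference genes ACTB, RPL19 and HUWE1, 61 members were higher in BAT and 2 lower, beside 71% of all genes called. Of these calls over all genes 62.6% were higher, and the median log2FC of all genes was 0.24. With DESeq2's size factors 39 members were higher and 9 lower, beside 72.6% of all genes called. Here 47.5% of the calls over all genes were higher, and the median of all genes was -0.05. RPL19 is itself one of the 77 and was lower in BAT, ACTB had a log2FC of 0.06 ± 0.12 and HUWE1 of -0.16 ± 0.08 between the tissues. With the RNA integrity number of each library as a covariate the median log2FC was 0.28, and 37 members were higher and 4 lower, beside 10545 of 17021 genes called. The study reported a lower mean integrity number in BAT than in thyroid tissue, so RNA integrity and tissue cannot be fully told apart. Longer members tended to have the lower log2FC, with a Spearman's rho of -0.28 across the 77 genes, which share their libraries and are not independent.

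The next comparisons asked how the genes differed in BAT after 2 days in the cold. In the cold group the members were 0.44 above controls 1 and 3 on the log2 scale by their median, a fold of 1.35, and 73 of 76 had a positive log2FC, but 0 of 76 passed the edgeR test, beside 3.27% of all 14905 genes. All tested genes had a median of 0.02. An unadjusted p under 0.05 was reached by 20 members, all with positive log2FC, beside 20.4% of all genes, and DESeq2's Wald test also called 0. All 6 cold values lay above both controls for 28 members, beside 13.5% of all genes, and below both for 1 member, RPL7L1, beside 12%. RPL3L had too few reads in BAT to be tested there.

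RPLP0, the base of the stalk, had normalised counts of 18556, 24014 and 33930 in the cold group (lowest, median and highest of 6) and of 20367 and 15520 in controls 1 and 3, so the groups overlapped, with a log2FC of 0.48 ± 0.23 (adjusted p = 0.25 by edgeR). In control 2 it was 63501, above all cold libraries. RPL27, a large-subunit protein, had the highest log2FC with 0.73 ± 0.34, from 2372, 3579 and 6308 in the cold group against 2546 and 2454 in the controls, where the lowest cold library lay below both controls. Control 2 again stood higher, with 6750.

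RPL7L1, RPL26L1 and RPL28 were the members with negative log2FC. RPL7L1 (chromosome 20, 18260567 to 18265968, plus strand, 7 merged exons) had 616, 664 and 790 normalised counts in the cold group and 891 and 822 in controls 1 and 3. Every cold library was below both of these controls and below control 2, which had 1332. Its log2FC was -0.31 ± 0.17 (adjusted p = 0.31 by edgeR). RPL26L1, a paralog of RPL26, had -0.13 ± 0.21 and RPL28 had -0.03 ± 0.24.

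In the AT group the picture was much the same, with the same 2 controls. The median log2FC of the members was 0.49, a fold of 1.41, with 74 of 76 positive, and 0 passed the edgeR test, beside 11.8% of all genes, whose median log2FC was 0.05. An unadjusted p under 0.05 was reached by 35 members, beside 29.6% of all genes. All 6 AT values lay above both controls for 29 members, beside 13.9% of all genes. DESeq2's Wald test called 11 members, all higher, beside 18.4% of all genes, among them RPLP0 of the stalk and RPL13A. With size factors from ACTB and HUWE1 alone, 25 were called higher, beside 13.4% of all genes, and the median of all genes then stood at 0.28. ACTB itself had a log2FC of -0.55 ± 0.25 in this comparison (unadjusted p = 0.044, adjusted p = 0.16 by edgeR), and RPL19 had 0.41 ± 0.21, so the study's reference genes had log2FC of opposite signs.

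RPL35A, a large-subunit protein, was among those closest to a call. It stood at 7408, 10310 and 12961 normalised counts in the AT group and at 6683 and 5787 in controls 1 and 3, without overlap. The log2FC was 0.73 ± 0.25 (adjusted p = 0.068 by edgeR), and with control 2 in place of control 1 or control 3 it was 0.09 or 0.07. The control lamb that was left out had 13683 for RPL35A, above all treated BAT libraries, and its RPLP0 of 63501 and RPS6 of 39420 were likewise above them. Of the role genes, RPLP0, RPLP1, RPL5, RPL11, RPS6, RPS27A, RPL13A, RPS3, RPS14 and RPS19 had log2FC between 0.29 and 0.54 in the cold and between 0.33 and 0.66 in the AT comparison, and RPLP2 had 0.26 and 0.48.

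On this scale these positive values rest on the choice of control lambs. Control 2 stood a median of 1.13 on the log2 scale above the mean of controls 1 and 3 over the members, against 0.01 over all tested genes. TMM scaling holds the latter near 0. On the same scale control 2 lay above both other controls for 75 of 76 members and above every other BAT library for 55, beside 30.6% of all tested genes. By share of counts, control 2 held 7.79%, inside the ranges of the cold (5.93 to 10.1%) and AT groups (6.03 to 9.52%). Its size factor was 0.354 for 7549807 counts outside the pair and ribosomal RNA. Controls 1 and 3 had 0.776 for 9741778 and 1.39 for 15844824. The distance of control 2 from the others thus depends on the scale. With all 3 controls the median log2FC of the members became -0.04 for cold and -0.01 for AT. With controls 2 and 3 it was -0.21 and -0.18, and with controls 1 and 2 it was -0.22 and -0.20. RPL7L1 was called lower in the cold comparison with either of the last pairs, at -0.64 each, and RPL28 with controls 1 and 2, at -0.79, where 15.5% of all genes were called with controls 2 and 3 and 16% with controls 1 and 2. The brown adipocyte markers summed to 539033 in control 2, 112867 in control 1 and 108603 in control 3, the endothelial markers to 17371, 44754 and 38070, and the fibroblast markers to 57200, 25407 and 24973. The fibroblast markers of all 12 treated BAT libraries, 31970 to 213534, were above those of controls 1 and 3. The part of these cell types in the levels of the members was not tested.

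**Figure D3:**
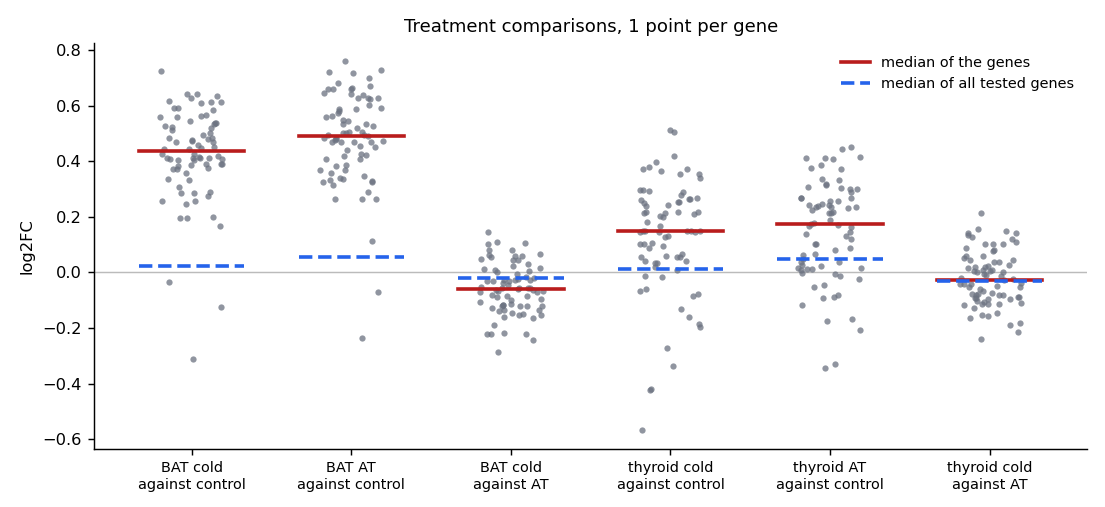
log2FC of each member in the 6 treatment comparisons, 1 point per gene. RPL3L, which was not tested in BAT and lies far outside the axis in 2 of the thyroid comparisons, is not drawn. The median of the members (solid line) is 0.44 and 0.49 in the BAT comparisons with controls 1 and 3 and -0.06 in BAT cold against AT, and dashed lines are the medians of all tested genes.

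**Figure D4:**
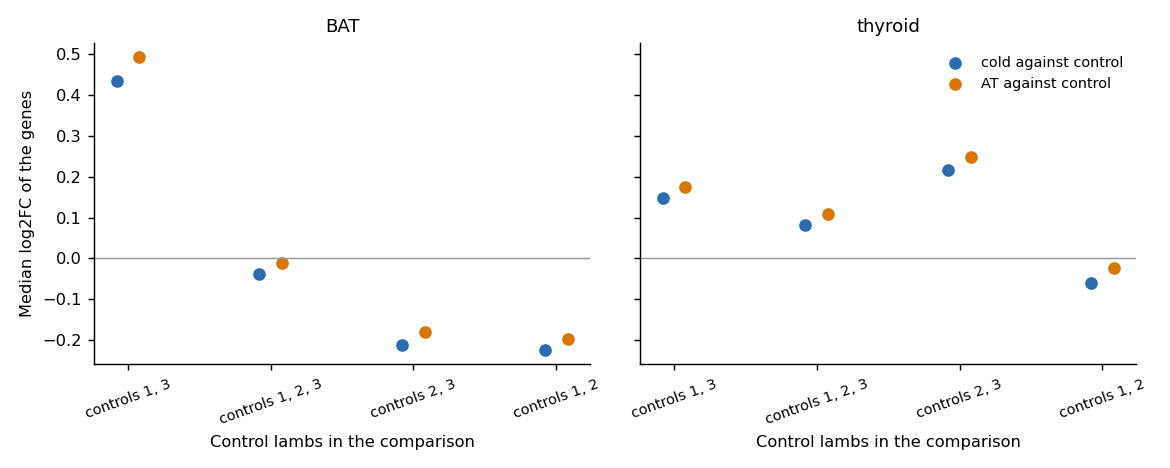
Median log2FC of the members against control with each set of control lambs, in BAT (left) and thyroid tissue (right). In BAT the median is positive only with controls 1 and 3, at 0.44 and 0.49.

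Between lambs of one age, BAT held nearly equal levels. In cold against AT the median log2FC of the members was -0.06 against -0.02 for all genes, and the members ranged from -0.29 for RPL21 to 0.15 for RPL27. Of the 76 members, 0 passed the edgeR test and 0 reached an unadjusted p under 0.05, beside 0.637% and 15.1% of all genes, and DESeq2's Wald test called 0. The median SE of a member was 0.16. RPL7L1 had the lowest adjusted p, with 616 to 790 normalised counts in the cold group and 649 to 955 in the AT group and a log2FC of -0.24 ± 0.12 (adjusted p = 0.35 by edgeR).

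In thyroid tissue the median log2FC of cold against control was 0.15, with 61 of 77 positive, against 0.01 for all tested genes. By edgeR 0 members were called, beside 8.86% of all 16122 genes, and 6 reached an unadjusted p under 0.05, beside 26.2%. DESeq2's Wald test called RPL23A higher and RPL7L1 lower, beside 14.7% of all genes called. All cold values lay above both controls for 3 members, beside 14.8% of all genes, and below both for 3 members, beside 16%. For AT against control the median was 0.18 with 62 of 77 positive, 0 were called by edgeR, beside 8.71% of all genes, and 3 reached an unadjusted p under 0.05, beside 26.9%. DESeq2's Wald test called RPL18 higher, beside 16.15% of all genes called.

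RPL7L1 had the lowest adjusted p in thyroid cold against control. Its normalised counts were 1389, 1488 and 1670 in the cold group and 2400 and 2028 in controls 1 and 3, with 3171 in control 2. Every cold library was below every control, with a log2FC of -0.57 ± 0.18 (adjusted p = 0.069 by edgeR). In the AT group it had 1465, 1579 and 2628, where the highest value was that of AT 3, the library with the most muscle reads, and the log2FC was -0.33 ± 0.19. With all 3 controls cold against control gave -0.75 (adjusted p = 0.014 by edgeR). Without AT 3, the cold and AT comparisons gave -0.57 (adjusted p = 0.0042 by edgeR) and -0.49 (adjusted p = 0.0097 by edgeR), and without both AT 3 and control 1 neither was called.

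RPL23A and RPL11 had the highest log2FC in the cold. RPL23A had 56836, 61088 and 70839 normalised counts in the cold group against 52281 and 35655 in controls 1 and 3, a log2FC of 0.50 ± 0.17 (adjusted p = 0.083 by edgeR), and 43959 in control 2. All cold values were above all controls. RPL11 had 0.51 ± 0.23 (adjusted p = 0.17 by edgeR). RPL18 had the lowest adjusted p in the AT comparison, with 18223, 22895 and 23760 against 18713 and 13637 in controls 1 and 3 and a log2FC of 0.45 ± 0.16 (adjusted p = 0.083 by edgeR). Control 2 had 23365, above the AT median, and with it in place of control 1 or control 3 the log2FC was 0.27 or 0.09.

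The thyroid values moved with the controls, with scale and with the muscle-rich libraries. With controls 1 and 2 in place of 1 and 3 the medians were -0.059 for cold and -0.022 for AT, and RPL7L1 was called lower in both, at -0.87 and -0.65, beside 16.2% and 13.3% of all genes called. Control 2 had summed parathyroid markers of 57629 normalised counts, against at most 2768 in the other 14 thyroid libraries, and summed brown adipocyte markers of 27270, the highest in thyroid tissue. The fibroblast markers of all 12 treated thyroid libraries, 30237 to 140858, were above those of the 3 controls, 9029 to 26107. The part of these cell types in the levels of the members was not tested. With the study's 3 reference genes the medians became -0.12 for both comparisons and 2 members were called lower in each, RPL7L1 among them, beside 19.3% and 21% of all genes called, while the median of all genes moved to -0.28, so the members stayed above it. Without AT 3 and control 1, which leaves 1 control, the median was 0.47 for cold and 0.36 for AT. That control, control 3, had the lowest share of the members (4.29%) and the lowest median deviation (-0.42) of the 15 thyroid libraries. These medians therefore rest on 1 lamb. RPL22L1 had a log2FC of 0.82 for cold and 0.80 for AT. The remaining control, control 3, had 341 normalised counts of RPL22L1, against 564 to 678 in the cold group and 848 in control 2.

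In thyroid cold against AT, 0 of 16122 genes were called by edgeR, a background of 0.0%. The median log2FC of the members was -0.03, as it was over all genes, and 1 member reached an unadjusted p under 0.05, RPL3L, beside 6.12% of all genes. DESeq2's Wald test called 0 members. Apart from RPL3L, the members ranged from -0.24 for RPL7L1 to 0.21 for RPL7.

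RPL3L followed the muscle reads. This gene (chromosome 24, 1465453 to 1472652, minus strand, 11 merged exons) had 2513 reads in thyroid AT 3 and 689 in thyroid control 1, and 11 to 33 reads in the other 13 thyroid libraries. In BAT it had 0 to 26 reads per library, and the summed muscle markers of BAT were 95.7 to 528 normalised counts. As a percent of RPL3 per kb, RPL3L was 7.78% in thyroid AT 3 and 1.82% in thyroid control 1, and the other libraries of both tissues were at 0.179% or below. RPL3 itself was 33819 normalised counts in AT 3, the highest of the 15 thyroid libraries. This was not particular to RPL3, since 73 of 77 members lay above their own mean in AT 3. The log2FC of RPL3L in thyroid tissue were -4.36 ± 1.78 for cold against control and -5.02 ± 1.61 for cold against AT (adjusted p = 0.14 and 0.78 by edgeR), and without AT 3 the first was called at an adjusted p of 0.0012 by edgeR, resting on control 1. AT against control then gave -3.82 (adjusted p = 0.0028 by edgeR), from 0.66 ± 1.94 with AT 3.

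**Figure D5:**
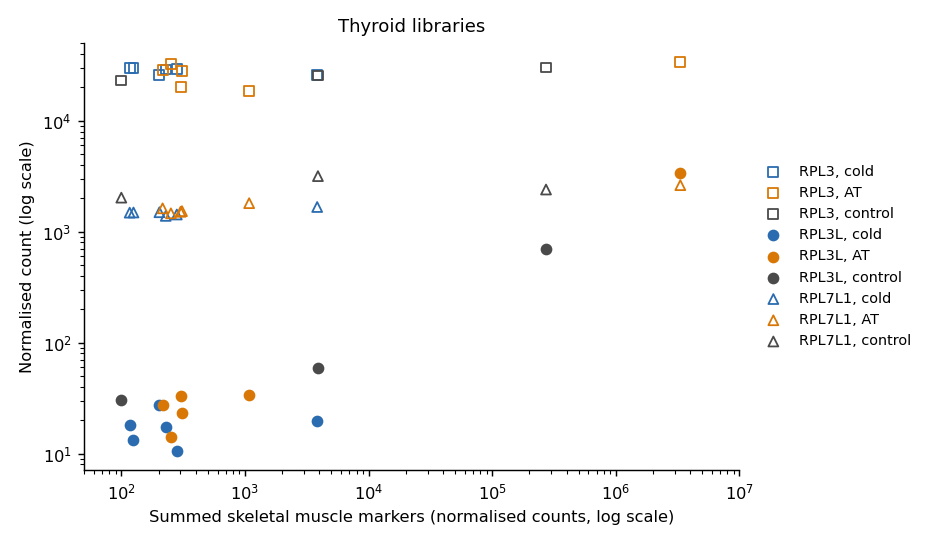
Normalised counts of RPL3 (squares), RPL3L (filled circles) and RPL7L1 (triangles) against the summed skeletal muscle markers in the 15 thyroid libraries, both axes on a log scale. RPL3L is at 59 or below except in control 1 (703) and AT 3 (3368), the 2 libraries at the right, while RPL3 stays between 18564 and 33819.

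The other paralogs were set beside their partners per kb. RPL22L1 was a median of 2.22 to 2.68% of RPL22 per kb in the 6 groups, and both were higher in BAT, with log2FC of 0.67 ± 0.14 and 0.56 ± 0.15. RPL26L1 was 0.71 to 1.5% of RPL26, and RPS27L was 10.5 to 11% of RPS27 in the BAT groups and 14.6 to 19.3% in the thyroid groups. RPS27, an unusual zinc-finger protein of the small subunit, was higher in BAT with 0.79 ± 0.18, and RPS27L, known as a target of p53, did not pass with 0.17 ± 0.14. RPL36AL was 49.4 to 56.4% of RPL36A in BAT and 66.1 to 89.9% in thyroid tissue, and RPL36A was higher in BAT with 0.43 ± 0.15 while RPL36AL had 0.02 ± 0.11. RPL7L1 was 3.27, 3.99 and 5.06% of RPL7 in BAT cold, AT and control and 3.49, 4.38 and 6.77% in the same thyroid groups, so that the controls had the highest median in both tissues, where all 3 controls are counted. RPL10A and RPL10, which are unrelated proteins despite their names, stood at a ratio of 102 to 116% in BAT and 83.5 to 87.8% in thyroid tissue.

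Whether the members responded differently in BAT and thyroid tissue was tested in the fit of both tissues. For cold against control, 0 of 77 members were called by edgeR, beside 0.17% of all genes, with 3 at an unadjusted p under 0.05, beside 10.3%, and DESeq2's Wald test called 0. The median of BAT minus thyroid was 0.28. For AT against control, 0 were called, beside 1.23% of all genes, 2 reached an unadjusted p under 0.05, beside 14.7%, DESeq2's Wald test called 0, and the median was 0.37. With all 3 controls the medians were -0.11 and -0.05. For cold against AT, 0 were called, beside 0.0353% of all genes, 1 reached an unadjusted p under 0.05, beside 8.57%, DESeq2's Wald test called 0, and the median was -0.05.

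Part of the spread between the libraries of a tissue went with the median of the members in each library. These libraries cover all 3 groups, so differences between groups and in scaling are part of this spread. The median came from the same members, so some decrease is built in. Over the 14 BAT libraries used, a member had a median SD of 0.31 on the log2 scale, which became 0.13 once the median deviation of all members in each library was taken off, and it became smaller for 73 of 76 members. In thyroid tissue the SD went from 0.26 to 0.15, smaller for 75 of 77. The library medians ran from -0.53 in BAT control 3 to 0.43 in BAT cold 5, where all 76 members were above their mean, and from -0.42 in thyroid control 3 to 0.39 in thyroid AT 3. All tested genes, most of them less abundant than the members, had a median SD of 0.37 in BAT and 0.36 in thyroid tissue. Among the more abundant genes, 311 in BAT and 513 in thyroid tissue, it was 0.37 and 0.29. No library median was taken off for these genes, so their values compare only with the SD of the members before that step. RPL21, RPL26L1, RPL7L1 and RPL27 kept the largest spread in BAT, with 0.42, 0.39, 0.36 and 0.35, and for RPL26L1 and RPL7L1 this was more than before, from 0.26 and 0.22. RPL3L with 2.24 and RPS27 with 0.42 kept the largest spread in thyroid tissue.

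Ribosomal proteins outside the name rule had values inside the range of the members. RACK1 was higher in BAT with a log2FC of 0.47 ± 0.11, and RPSA and FAU did not pass with 0.05 ± 0.11 and 0.19 ± 0.10. Against controls 1 and 3 in BAT, RACK1 had 0.45 in the cold and 0.63 in the AT comparison, RPSA 0.38 and 0.55 and FAU 0.44 and 0.43, and none of them passed the edgeR test. Elongation factors and other messages with a TOP tract (16 genes) had medians of 0.35 for cold and 0.46 for AT in BAT against these controls, and 1 of them, EIF3E, was called higher in the AT comparison, beside 11.8% of all genes called. Between the tissues 7 of the 16 were higher in BAT and 2 lower, beside 38.9% and 32.9% of all genes. EEF1B2 and EEF1D, parts of the exchange factor of elongation, were higher with 1.29 ± 0.20 and 1.09 ± 0.14, EEF1A1 was higher with 0.48 ± 0.12, and EEF2 was lower with -0.60 ± 0.12.

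The genes of the mitochondrial ribosome, which is built from other proteins, had other values. Of 74 tested, 23 were higher in BAT than in thyroid tissue and 10 lower, beside 38.9% and 32.9% of all genes, with a median log2FC of 0.12. In BAT their medians against control were -0.12 in the cold and -0.13 in the AT comparison, where 1 was called lower, beside 11.8% of all genes called. In thyroid tissue they were -0.41 and -0.14, with 4 and 1 called lower, beside 8.86% and 8.71% of all genes called. These counts lie below the share called over all genes. Of 24 regulators of ribosomal protein synthesis, 10 were higher in BAT than in thyroid tissue and 4 lower, beside the same shares of 38.9% and 32.9%. MYC and the translation repressor EIF4EBP2 were higher with 1.45 ± 0.26 and 1.21 ± 0.12, the kinase MTOR with 0.81 ± 0.07, and MLST8, its partner, was lower with -0.85 ± 0.09. Against control, MTOR, POLR1B of RNA polymerase I and the RNA-binding protein LARP4 were the 3 called in thyroid tissue, all lower in the cold (-0.63, -0.83 and -0.77) and in the AT comparison (-0.52, -0.82 and -0.81), beside 8.86% and 8.71% of all genes called. In BAT LARP4 alone was called, in the AT comparison, with -0.74 ± 0.15, beside 11.8% of all genes.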

How the data were processed

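The authors extracted RNA with TRIzol, captured mRNA on oligo(dT) beads, sequenced read pairs on the BGISEQ-500 platform, trimmed with Trimmomatic 0.39, aligned with STAR 2.7.7a to Oar_rambouillet_v1.0 and counted with featureCounts (Subread 2.0.0), with reads that map to several places included. They deposited raw counts per gene and library. From these, each tissue was fitted by edgeR 4.0.16 (R 4.3.3, limma 3.58.1, quasi-likelihood, robust, 2-sided) with all 3 groups, controls being the 2 used by the study, recognised because its listed values per lamb are proportional to the counts of 1 library each. A gene was tested if 10 or more libraries of the fit held 10 or more of its reads. Scaling was TMM over tested genes outside the 77, because RPL19, a reference gene of the study, is a member. Normalised counts are counts over these size factors, and log2 deviations use a pseudocount of 1. Calls are at a Benjamini-Hochberg adjusted p under 0.05 over all tested genes. SE is an approximate standard error of log2FC, its absolute value over the square root of the quasi-likelihood F statistic. Coordinates are from the count table, with chromosomes named through a RefSeq gene table of ARS-UI_Ramb_v3.0, in which 76 of the 77 names occur.

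The members and lists were chosen with earlier results of these data known. Named genes were the reference genes, the called genes at either end of a comparison, the highest and lowest per kb, paralogs and genes with known roles. RPL35A, RPL27, RPL28, RPL7L1, RPL23A, RPL11 and RPL18 in the treatment comparisons and the members called under alternatives were named after their values were seen. A few genes are not reported here. Alternatives were other scalings, no filter, DESeq2 1.42.0, all 3 controls, RNA integrity number, left-out lambs and the lamb as a block. Libraries of one lamb share its number in the labels, and over 14 lambs the deviations of the members correlated between tissues by -0.0025 to 0.37 (median 0.22). No such values are given for libraries of different lambs, so these do not test the pairing. Every pair of libraries within a group differed by more than counting noise, with chi-square over its degrees of freedom at 38.3 or above. In counts simulated for BAT cold against control, 41% of genes changed by 1 on the log2 scale and 91% of those changed by 2 were called. Genes with low mean counts were not among those changed, and changes below 1 were not simulated.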

Additional observations from a re-analysis of the deposited data

Results flagged for a closer look

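The highest and lowest library of each group of 6 was compared with the other 5 by Dixon's test for some of the named members and for the summed share of the members. Others, such as RPLP0 and RPL28, were not checked. There were 96 checks in all, of which chance picks out about 1 in 20. In 5 checks, near that rate and all in thyroid tissue, a library stood apart. RPL3L in thyroid AT 3 had 3368 normalised counts against 33.5 in the next library. RPL7L1 in the same library had 2628 against 1808, and RPL22L1 had 854 against 639. This is the library with 3328839 summed normalised counts of skeletal muscle genes. Most members were high in it, with 73 of 77 above their own mean and a median log2 deviation of 0.39. RPL22 in thyroid AT 2 was low, at 7133 against 11201 in the next library, and RPLP2 in thyroid cold 6 was low, at 8428 against 11007. No explanation was tested for these values.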

How the results depend on the processing

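The comparison of tissues kept the sign of its median and a count of calls within 1.5 times under every alternative run, while the comparisons with control depended on which lambs and which scale were used. The median between tissues was lower with the RNA integrity number as a covariate, which differs between the tissues. With all 3 controls the median log2FC of the members became -0.038 for BAT cold and -0.010 for BAT AT, -0.11 and -0.054 for the tissue differences of cold and AT, and 2 members were called in thyroid cold, beside 12.7% of all genes. RPL19 then stood at -0.25 and -0.26 in BAT cold and AT. With all 3 controls and ACTB and HUWE1 as scale, chosen after seeing the data, the BAT medians were -0.10 and 0.069, and RPL19 stood at -0.34 and -0.22. Scaling by ACTB, RPL19 and HUWE1 gave thyroid medians of -0.12 for both, with 2 members called in each, and 1 call in the tissue difference of AT. Of all genes 19.3%, 21% and 1.66% were called in these comparisons. Scaling by ACTB and HUWE1 called 25 members in BAT AT, 1 in each thyroid comparison and 2 in the tissue difference of AT, with medians of -0.050 in thyroid AT and 0.55 and 0.80 in the tissue differences of cold and AT. Of all genes, 13.4% were then called in BAT AT, 8.57% in thyroid cold, 11.3% in thyroid AT and 7.87% in the tissue difference of AT. DESeq2's Wald test called 11 in BAT AT, 2 in thyroid cold and 1 in thyroid AT, beside 18.4%, 14.7% and 16.15% of all genes. Without thyroid AT 3 and thyroid control 1, also chosen after seeing the data, 11 members were called in thyroid cold and 9 in thyroid AT, with a median of 0.47 in cold, and the tissue differences had medians of -0.075 and 0.097. The cause of these changes was not tested.

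Leaving out 1 lamb at a time, with control 2 in place of a control left out, moved the members called from 0 to 2 in BAT cold, 0 to 4 in BAT AT, 0 to 2 in each thyroid comparison with control, 49 to 59 between tissues and 0 to 1 in the tissue difference of AT. At the highest of these counts, 16% of all genes were called in BAT cold, 9.65% in BAT AT and 2.15% in the tissue difference of AT. In thyroid tissue the shares were 13.85% or 17.3% for cold and 19.65% for AT. Between tissues the share of all genes called ran from 67.6 to 73.8%. The medians ran from -0.22 to 0.50 in BAT cold, -0.20 to 0.56 in BAT AT, -0.06 to 0.22 in thyroid cold, -0.02 to 0.25 in thyroid AT, and from -0.35 to 0.33 and -0.30 to 0.43 in the tissue differences of cold and AT. In BAT AT, leaving out AT 4 gave 4 calls, RPL35A and RPL37 among them. Leaving out cold 3 or cold 5 gave 1 each, RPL9 for the latter, beside 10.6% and 10.9% of all genes called. Leaving out a used control turned RPL27 to -0.15 and -0.11 and RPL19 to -0.50 and -0.53 in BAT cold. In BAT AT it turned RPL19 to -0.50 and -0.53. With the lamb as a replicate block, 57 members were called between tissues with a median of 0.45, beside 73.1% of all genes called, and the block changed no other count of calls. For a chosen set of named genes and comparisons, 247 values kept their direction and their side of the threshold, 23 lost a call, 17 gained one and 10 changed sign. This tally does not include the runs that left out 1 treated lamb at a time or the run with the RNA integrity number. RPL3L had too few reads in BAT to be tested there.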
